A study of Mus musculus with 24 samples.

Results

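The regions described here carried a deposited ATAC-seq peak in small pre-B cells of WT mice and in neither earlier stage. ATAC-seq cuts DNA with a transposase where chromatin is accessible, and a peak is a stretch where cuts pile up over the local background. B-cell progenitors were sorted from mouse bone marrow at 3 successive stages called Pre-pro-B, Pro-B and, last, Small pre-B, each from WT and from Mki67-/- mice, with 4 libraries in each of the 6 groups. Mki67 encodes Ki-67, a protein of cycling cells that coats mitotic chromosomes. The labels give no strain, age, sex, sorting gate or nature of the Mki67 allele, and do not say whether the 4 libraries of a group came from separate animals, so p-values measure only the spread between these libraries.

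Joining overlapping peaks over all 24 libraries gave 159326 regions on chromosomes 1 to 19 and X. The small pre-B-only regions were chosen by their peaks in WT libraries alone: a peak in 4 of 4 WT Small pre-B libraries, in 0 of 4 WT Pre-pro-B libraries and in 0 of 4 WT Pro-B libraries. This held for 1980 regions, which is 1.24% of all regions and 4.08% of the 48510 regions with a peak in all 4 WT Small pre-B libraries. The rule read only WT lists, so the WT values below are descriptions and the Mki67-/- libraries are the ones in which a test was made. By the same rule, 5161 regions were found only in WT Pro-B cells and 16375 only in WT Pre-pro-B cells, so the small pre-B set was the smallest of the 3.

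B cells develop through ordered rearrangement of their antigen receptor genes. Pro-B cells join the segments of the immunoglobulin heavy chain locus, Igh, and a successful chain forms the pre-B-cell receptor, which drives a burst of division. Small pre-B cells have left the cell cycle and rearrange the light chain loci, mostly Igk, under transcription factors such as E2A, SpiB, PU.1, IRF4 and IRF8. Promoters of most genes are accessible throughout this path, and the regions that open at a single stage are usually distal elements.

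Promoter sequence was at hand for the few small pre-B-only regions that touch a promoter window. In the RefSeq table (build GRCm38.p6, the assembly called mm10), 22 regions touched 29 promoter windows of 25 genes. The 4 strongest are printed, from 250 bases before the start site to 30 after it, 5′ to 3′ on the gene's strand, with capitals for the bases that the region covered. Ltbp4 encodes a protein that tethers latent TGF-beta to the matrix, Myo1c a single-headed myosin, Nkpd1 a putative nucleotide-binding protein, and Platr10 is a long noncoding RNA. Gm46961 is a predicted gene whose start lies inside Igk, and it was added after its values were seen. Their positions are chr7:27333619-27333898 on the minus strand, chr11:75655765-75656044 on the plus strand, chr3:75655702-75655981 on the minus strand, chr7:19518481-19518760 on the plus strand and chr6:70718847-70719126 on the minus strand, in the order shown.
Ltbp4: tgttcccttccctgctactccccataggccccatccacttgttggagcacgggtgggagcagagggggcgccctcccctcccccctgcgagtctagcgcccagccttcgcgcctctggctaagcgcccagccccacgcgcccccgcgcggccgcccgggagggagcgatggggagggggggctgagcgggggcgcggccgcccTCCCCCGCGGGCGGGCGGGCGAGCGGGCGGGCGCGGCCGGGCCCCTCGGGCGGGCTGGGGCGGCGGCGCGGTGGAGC
Myo1c: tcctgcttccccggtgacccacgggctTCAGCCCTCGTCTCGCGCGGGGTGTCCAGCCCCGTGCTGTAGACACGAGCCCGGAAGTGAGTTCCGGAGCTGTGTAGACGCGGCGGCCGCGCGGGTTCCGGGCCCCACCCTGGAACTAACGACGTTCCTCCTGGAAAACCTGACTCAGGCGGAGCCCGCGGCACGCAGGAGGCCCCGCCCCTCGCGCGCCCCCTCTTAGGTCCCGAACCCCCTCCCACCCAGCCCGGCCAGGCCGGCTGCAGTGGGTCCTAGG
Platr10: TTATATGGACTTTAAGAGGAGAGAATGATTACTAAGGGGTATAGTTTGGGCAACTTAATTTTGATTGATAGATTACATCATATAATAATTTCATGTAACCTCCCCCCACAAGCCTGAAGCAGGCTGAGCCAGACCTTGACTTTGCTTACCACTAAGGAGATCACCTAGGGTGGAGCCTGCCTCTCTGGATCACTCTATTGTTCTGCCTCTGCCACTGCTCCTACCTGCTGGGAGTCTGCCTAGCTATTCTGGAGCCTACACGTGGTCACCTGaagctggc
Nkpd1: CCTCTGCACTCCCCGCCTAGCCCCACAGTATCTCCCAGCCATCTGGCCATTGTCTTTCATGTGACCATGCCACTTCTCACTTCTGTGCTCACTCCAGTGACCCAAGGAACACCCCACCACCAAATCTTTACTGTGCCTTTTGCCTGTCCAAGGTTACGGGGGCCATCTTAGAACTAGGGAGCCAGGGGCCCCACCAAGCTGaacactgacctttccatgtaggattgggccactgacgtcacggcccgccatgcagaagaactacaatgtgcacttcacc
Gm46961: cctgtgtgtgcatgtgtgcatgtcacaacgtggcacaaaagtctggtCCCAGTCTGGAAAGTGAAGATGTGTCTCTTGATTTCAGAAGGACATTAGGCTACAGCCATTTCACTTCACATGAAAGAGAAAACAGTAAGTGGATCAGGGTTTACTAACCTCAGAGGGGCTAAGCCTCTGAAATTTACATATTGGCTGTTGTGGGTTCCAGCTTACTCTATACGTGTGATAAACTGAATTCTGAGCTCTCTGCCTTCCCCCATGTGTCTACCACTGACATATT

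These promoter windows differed in base composition. At Nkpd1 the region ended before the start site. The Ltbp4 window was 80.3% G or C over its 300 bases and Myo1c 72.0%, while Platr10 held 47.0% and Gm46961 44.3%. The Platr10, Nkpd1 and Gm46961 regions had a peak in 4 of 4 Mki67-/- Small pre-B libraries and in none of the 8 earlier Mki67-/- libraries, and Ltbp4 in 3 of 4 and none of 8. Myo1c had a peak in 4 of 4 Mki67-/- Small pre-B libraries, and also in 3 Mki67-/- Pro-B and 2 Mki67-/- Pre-pro-B libraries. Motifs were searched on both strands of the 300-base windows. CACCTG, an E-box, was in 11 of the 29 windows (37.9%), against 18.4% of the 13208 windows under any region of all 4 WT Small pre-B libraries and 20.3% of all 32619. CAGCTG, another E-box, was in 20.7%, 15.3% and 16.4% of the same 3 sets. GGAANNGAA, a joint Ets and IRF site of the kind used by SpiB or PU.1 with IRF4 or IRF8, was in 7 windows (24.1%), against 6.97% and 8.14%. In the Ltbp4, Tle2, Slc7a7 and Gm9736 windows this match lay in bases that the region did not cover. Only at Ppp1r32 and Stac did it lie inside the region. The octamer ATGCAAAT was in none of the 29 windows. These shares count whole windows, whether or not the region covered the match. The 29 windows include overlapping windows of the same gene, at Ltbp4, Cntn5 and Slc7a7, and of neighbouring genes, such as Cntn5 and Gm32710. Some bases were therefore counted more than once, and a match is a description of letters only.

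Strength is given here as a percentile: the rank of a peak's -log10 q within its own library, where 100 is the strongest peak. Background coverage, a stand-in for depth recovered from the deposited values, was 1.86 to 3.06 in Mki67-/- Small pre-B, 2.40 to 3.70 in WT Small pre-B, 2.85 to 3.34 in WT Pro-B and 2.52 to 5.30 in WT Pre-pro-B libraries. Merged peaks numbered 63332 to 85621 in the WT Small pre-B lists and 70307 to 88946 in the lists of the earlier WT stages. Every library had a peak at the Mki67 start site, which does not check the genotype, since the labels do not say which part of the gene is changed. Peaks near T, NK and innate lymphoid marker genes lay in 107 to 129 regions of each WT Pre-pro-B library, 69 to 78 of each WT Pro-B library and 55 to 81 of each WT Small pre-B library. From WT Pre-pro-B to WT Small pre-B, myeloid genes went from 75 to 87 regions to 49 to 58. Plasmacytoid dendritic genes went from 93 to 120 to 66 to 78, and B-cell receptor signalling genes from 304 to 363 to 267 to 311. Plasma cell genes had 37 to 45 at both stages. The part of these differences in the results was not tested.

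In the Mki67-/- libraries most of these regions were also open at the small pre-B stage and few were open earlier. Of the 1980, the Mki67-/- Pre-pro-B libraries had a peak in 22, 38, 42 and 6, the Pro-B libraries in 65, 43, 54 and 53, and the Small pre-B libraries in 1127, 1655, 1576 and 1648. No library of the Small pre-B group came near the earlier ones, and the lowest of the 4, replicate 1, also had the shortest list (54387 merged peaks) and the lowest coverage of its group (1.86). The mean was 1501.5 ± 252 regions in Small pre-B (SD, n = 4; 75.8% ± 12.7), 53.75 ± 8.995 in Pro-B (n = 4; 2.71%) and 27.0 ± 16.5 in Pre-pro-B (n = 4; 1.36%). Small pre-B exceeded Pro-B 27.9-fold and Pre-pro-B 55.6-fold (2-sided exact permutation over libraries, p = 0.0286 and adjusted p = 0.0286 for each, the smallest p that 4 against 4 allows). Pro-B exceeded Pre-pro-B 1.99-fold with the same exact p = 0.0286, a difference of 1.35 percentage points of the regions. In 11 of the 24 runs that each left out 1 library that small step missed the threshold, at 0.535 to 1.53 percentage points. In 6 of these 11 its adjusted p was 0.0571 by the exact permutation test. The lowest step came without WT Pre-pro-B replicate 1 (exact permutation, adjusted p = 0.600), while the gaps to Small pre-B stayed between 66.3 and 80.8 percentage points in all 24 runs. When 3 doubted libraries were left out (replicate 1 of WT and of Mki67-/- Small pre-B, and the fourth of Mki67-/- Pre-pro-B), Small pre-B stood 75.9 points above Pro-B (adjusted p = 0.0857) and 77.0 above Pre-pro-B (adjusted p = 0.100), by the same exact permutation test. Both Mki67-/- libraries had the lowest coverage of their groups (1.86). The WT library had the longest list of its group (85621 merged peaks) at a coverage of 2.87. It had a peak in 54.9% of the other regions without an earlier WT peak. The rest of its group stood at 4.64 to 9.88%.

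**Figure D1:**
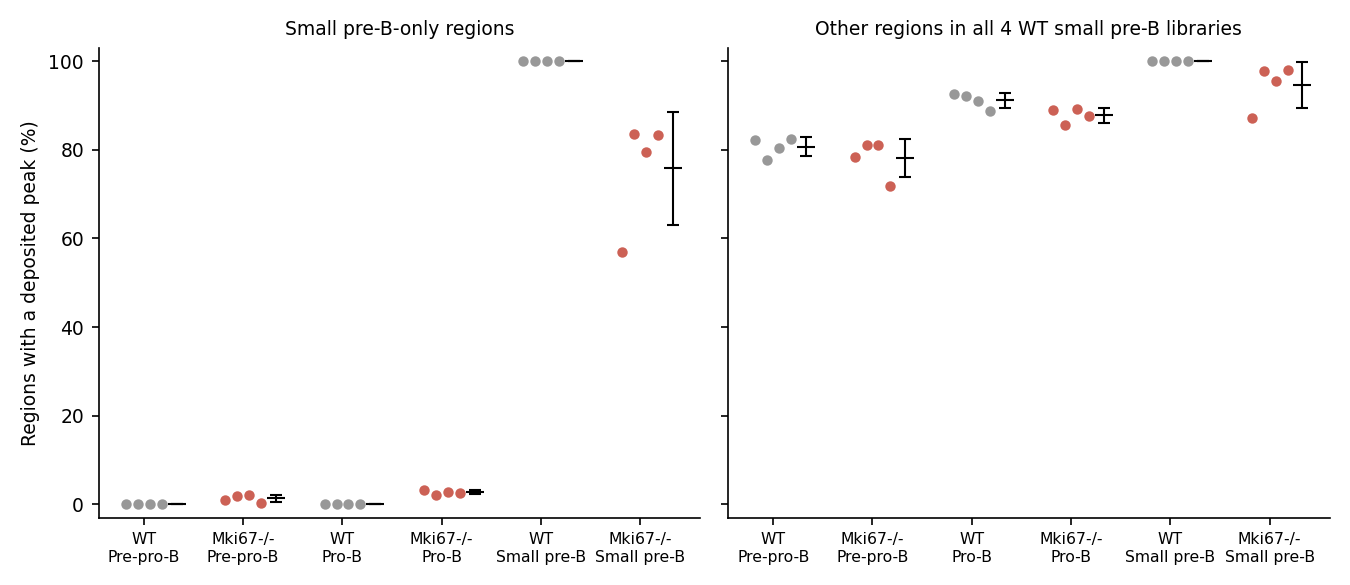
Share of regions with a deposited peak (%) in each library, by stage and genotype; each dot is 1 library, bars are the mean and SD of 4, grey is WT and red Mki67-/-. Left, the 1980 small pre-B-only regions, for which the WT values are set by the rule: Mki67-/- Small pre-B libraries lay at 56.9 to 83.6% and the earlier Mki67-/- stages at 3.28% or less. Right, the other 46530 regions found in all 4 WT Small pre-B libraries.

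Region by region, 971 of the 1980 (49.0%) had a peak in all 4 Mki67-/- Small pre-B libraries, 475 in 3, 267 in 2, 163 in 1 and 104 (5.25%) in none. An early peak was rare: 160 regions (8.08%) had one in any Mki67-/- Pro-B library, 75 (3.79%) in any Mki67-/- Pre-pro-B library and 15 in both stages. A test of each region, with its presence permuted exactly over the 4 Mki67-/- Small pre-B and 8 earlier Mki67-/- libraries, was fitted to all 76192 regions with a peak in 2 to 10 of these 12. After Benjamini-Hochberg adjustment 0 regions were called (0%), because the smallest exact p is 0.00202 and 3079 regions at that p would have been needed, while 1467 opened and 1144 closed completely. The lowest adjusted p of this exact permutation test was 0.0590. At an unadjusted p under 0.05, 2943 of all regions tested (3.86%) were higher in Small pre-B and 2912 were lower. Of the 1980, 1352 (68.3%) were higher and 0 were lower, with 250 outside the range tested. When each list was limited to its 40000 strongest peaks, 1862 regions were called.

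The WT rule was then mirrored in the other genotype. A peak in 4 of 4 Mki67-/- Small pre-B and 0 of 8 earlier Mki67-/- libraries was found at 1467 regions, or 1.93% of those tested. The 2 lists shared 855 regions, which is 43.2% of the WT-chosen regions and 58.3% of the mirrored ones. Of the 612 mirrored regions outside the WT-chosen set, 457 had a peak in all 4 WT Small pre-B libraries and also in at least 1 earlier WT library, 69 missed a single WT Small pre-B library and had no earlier WT peak, and 9 had no peak in any WT Small pre-B library. Without Mki67-/- Small pre-B replicate 1 the mirrored set grew to 2231 regions and held 59.9% of the WT-chosen ones.

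Small pre-B-only regions were narrow and of modest strength. Their median width was 287 bp (range 155 to 1119), against 788 bp for all regions in 4 of 4 WT Small pre-B libraries. The WT Pro-B-only and Pre-pro-B-only regions had medians of 370 and 655 bp. Median strength was percentile 34.5 (range 1.96 to 85.7), against 64.0 for the other 4-of-4 regions, and the deposited fold enrichment of the summit over local background had a median of 6.56 against 12.5. Summits had a median spread of 21 bp over the 4 WT libraries, against 15 bp for the other 4-of-4 regions. These values come from the WT lists that chose the regions and are given without a test.

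Presence in Mki67-/- Small pre-B cells followed that strength. Regions at percentiles 10 to 25 (547 of them) had a peak in 56.8% ± 16.5 of cases per Mki67-/- library (SD, n = 4), those at 25 to 50 (978) in 79.9% ± 14.6, and those at 50 to 75 (380) in 97.6% ± 3.51. The 17 strongest, above percentile 75, were present in all 4 libraries. Other regions of all 4 WT Small pre-B libraries in the same strength ranges stood at 72.8%, 89.4% and 99.3%, above the small pre-B-only regions in each. The 104 regions absent from all 4 Mki67-/- Small pre-B libraries had a median percentile of 18.8, against 45.2 for the 971 present in all 4. Since the rule required a peak in every WT Small pre-B library, WT stands at 100% by construction and no test of WT against Mki67-/- was made. For comparison, the WT Pro-B-only regions had a peak in 94.5% ± 2.12 and the WT Pre-pro-B-only regions in 89.3% ± 9.72 at the same stage of Mki67-/- mice (n = 4 each). These sets were not matched for strength or list length. The Mki67-/- lists held 54387 to 71346 merged peaks in Small pre-B, 71244 to 77213 in Pro-B and 67920 to 87225 in Pre-pro-B.

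**Figure D2:**
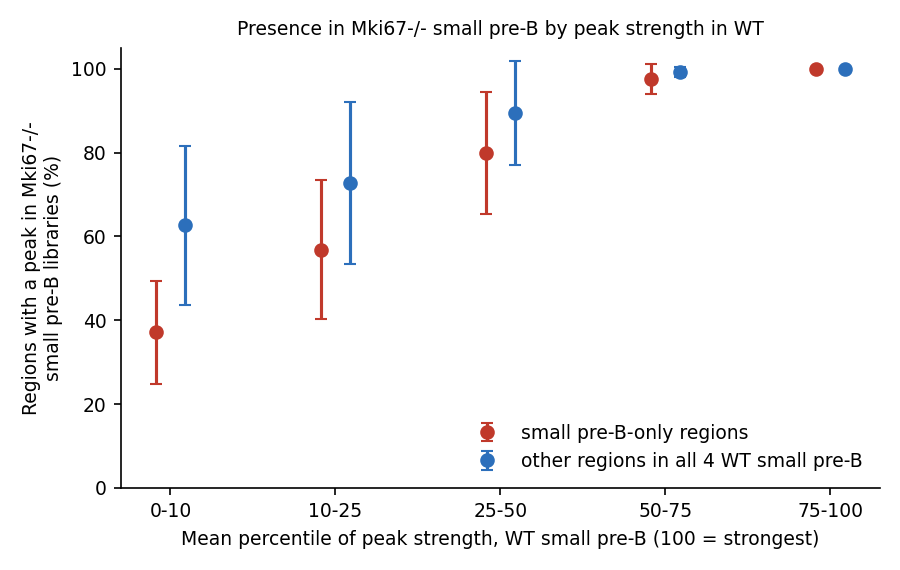
Share of regions with a peak in Mki67-/- Small pre-B libraries (%) by their mean percentile of strength in the WT Small pre-B libraries; points are means and bars the SD over 4 libraries, red for small pre-B-only regions and blue for the other regions of all 4 WT Small pre-B libraries. Both sets rise with strength, from 37.1% and 62.6% in the weakest range to 100% and 99.99% in the strongest.

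At the edge of the rule, 1060 regions missed 1 of the 4 WT Small pre-B libraries and had no earlier WT peak. Their median percentile was 17.02 and 38.9% ± 14.3 were present per Mki67-/- Small pre-B library. Another 730 regions had a peak in all 4 WT Small pre-B libraries and in 1 of the 8 earlier ones, with a median percentile of 35.9 and a presence of 78.1% ± 13.8.

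The kappa light chain locus held the densest group. Igk (chr6:67555636-70726754) contained 107 of the 1980 regions (5.40%), and these made up 51.2% of its 209 regions found in all 4 WT Small pre-B libraries, against 4.08% genome-wide. Kappa gene segments rearrange at this stage, with V segments spread over the 3.17 Mb upstream of the J segments and the constant gene Igkc. In the Mki67-/- Small pre-B libraries 72.9, 95.3, 85.0 and 90.7% of these 107 regions had a peak (86.0% ± 9.68, SD, n = 4). Outside Igk the same libraries stood at 56.0, 82.9, 79.3 and 82.8% (75.3% ± 12.9), so the Igk share was higher in each library. Median strength also differed, percentile 44.0 in Igk and 33.7 outside. Only 2 of the 107 had a peak in any Mki67-/- Pro-B library and 0 in any Mki67-/- Pre-pro-B library. The mirrored Mki67-/- rule found 93 regions in Igk, 67 of them shared.

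Most of the Igk regions sat on V segments. Of the 107, 71 overlapped an annotated V segment, 3 more lay within 500 bp of one, 17 lay farther but within 5 kb, and 16 lay beyond 5 kb. A small pre-B-only region was found within 500 bp of 55 of the 102 V segments annotated as functional and of 9 of the 60 V pseudogenes. A region of any kind in all 4 WT Small pre-B libraries was within 500 bp of 83 and 16 of them. The regions spread over the whole locus, with 32, 30 and 45 in equal stretches from the V-distal end to the J-proximal end, where regions of all 4 WT Small pre-B libraries numbered 72, 56 and 81. Only 1 lay within 20 kb beyond the end of Igkc, out of 3 regions of all 4 WT Small pre-B libraries there. With peaks restricted to the 20000 strongest of each library, 44 Igk regions met the rule.

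**Figure D3:**
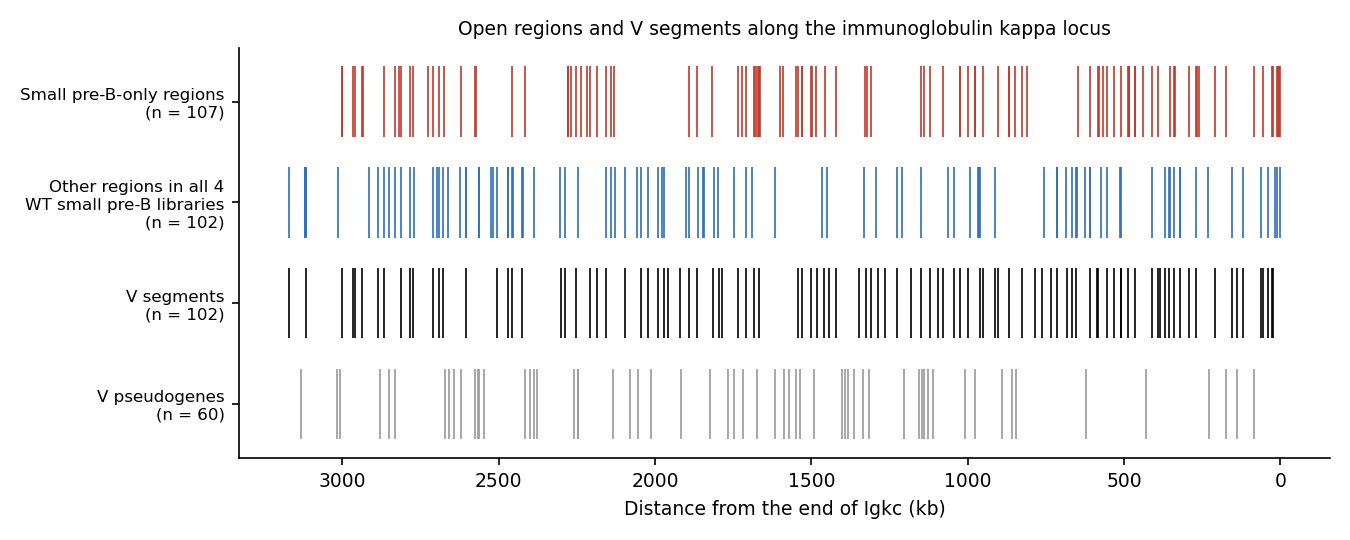
Positions along Igk as distance from the end of Igkc (kb), with one tick per item: the 107 small pre-B-only regions, the 102 other regions of all 4 WT Small pre-B libraries, 102 V segments and 60 V pseudogenes. Small pre-B-only regions run along the length of the V array and are not gathered at one end.

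The other antigen receptor loci had few in number. Lambda light chain locus Igl held 3 among its 14 regions of all 4 WT Small pre-B libraries (21.4%, against 4.08% genome-wide). Of these, 2 lay 181 bp from Iglj1 and 442 bp from Iglc3. All 3 were open in 3 or 4 Mki67-/- Small pre-B libraries and in no earlier one. Igh, which rearranges earlier, held 2 of its 42 regions (4.76%), near the genome-wide share. One was inside Igha (chr12:113257279-113257712, percentile 52.7, 4 of 4 Mki67-/- Small pre-B libraries), and the other lay 631 bp from Ighm. None were found among the T-cell receptor genes, where Tcra/Tcrd had 8 regions of all 4 WT Small pre-B libraries, Tcrb 6 and Tcrg 4. With so few regions and a genome-wide share of 4.08%, nothing is read from that absence.

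The strongest region of all lay at Spib. SpiB is an Ets-family factor that binds kappa enhancers together with IRF4 or IRF8. The region (chr7:44532977-44533328) is inside the body of Pold1, a DNA polymerase subunit, 1081 bp from the nearest start site, which is that of Spib. Its percentile was 86.3, 84.1, 85.6 and 86.9 in the WT Small pre-B libraries and 72.9, 80.4, 82.8 and 75.4 in the Mki67-/- ones, and no earlier library of either genotype had a peak there. A second region inside Spib (chr7:44529612-44529892) stood at 63.4, 65.2, 65.0 and 67.8 in WT and at 44.0, 52.1, 59.5 and 52.1 in Mki67-/- Small pre-B. At both, every WT value was above every Mki67-/- value. These regions were ranked by their WT values, so such a gap is a description with no test. Of the 40708 regions with a peak in all 8 Small pre-B libraries, 6.86% had every WT percentile above every Mki67-/- one and 2.51% the reverse. Of the small pre-B-only regions among them it was 115 of 971 (11.8%) and 7. For those at WT percentiles 50 to 75 it was 73 of 350 (20.9%) and 1. At percentile 75 or above it was 5 of 17 (29.4%) and 0. These ranges were cut on the same WT values that were compared, and the other regions were not split by strength. Whether this gap depends on strength or genotype was therefore not tested. Mki67-/- replicate 1 held the lowest of its group's values at 54.1% of these 971 and at 67.9% of the 40708. The deposited fold enrichments of these Spib regions were low for their rank, 3.74 ± 0.0495 and 2.37 ± 0.132 (SD, n = 4).

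Next in rank was a distal region (chr11:45280605-45281017) 272509 bp from its nearest protein-coding gene, Ebf1, the factor that commits progenitors to the B lineage. It stood at percentile 82.5, 81.1, 77.3 and 83.8 in WT and at 67.7, 78.7, 75.3 and 68.3 in Mki67-/- Small pre-B, so the groups overlapped. Its fold enrichment was 23.02 ± 1.92 in WT. Cxcr4, the receptor that holds B-cell precursors near CXCL12-producing stroma, had a region 9754 bp away (chr1:128602053-128602855). Percentiles there stood at 82.1, 77.8, 81.3 and 75.8 in WT and at 56.0, 73.1, 79.9 and 76.2 in Mki67-/- Small pre-B, with replicate 1 the lowest. A second Cxcr4 region (chr1:128582044-128582259) was weaker, at a mean percentile of 39.0 ± 10.9, and present in 2 of 4 Mki67-/- libraries. The strongest region within Igk (chr6:70240908-70241205) stood at percentiles 80.4, 76.7, 78.8 and 79.6 in WT and at 64.1, 75.8, 69.9 and 63.8 in Mki67-/- Small pre-B. Its 4 WT summits lay within 1 bp. With every WT value above every Mki67-/- one, it was one of the 115 regions counted above. Another 2 Igk regions also ranked in the first 10. One (chr6:67896509-67896852) stood at 83.9, 72.2, 79.1 and 78.6 in WT and at 78.3, 75.6, 76.0 and 75.6 in Mki67-/- Small pre-B, with overlap. The other (chr6:70315369-70315719) stood at 82.7, 75.9, 78.3 and 76.6 in WT and at 65.3, 70.7, 69.5 and 72.7 in Mki67-/- Small pre-B, without overlap.

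With 1 region taken per gene and Igk counted once, the remaining 6 of the 10 strongest lay in or near Iqgap3, Ano6, Slc25a33, Gpam, Ttc38 and Rpl28. Iqgap3 encodes a scaffold protein of the cytoskeleton, and its region (chr3:88119877-88120265) had the highest fold enrichment of the small pre-B-only set, 28.5 ± 5.30. Gpam encodes a mitochondrial enzyme of glycerolipid synthesis, and its region (chr19:55069875-55070402) stood at a mean percentile of 78.3 ± 1.81 in WT and at 75.9 ± 2.51 in Mki67-/- Small pre-B. All 10 were present in 4 of 4 Mki67-/- Small pre-B libraries. The Mki67-/- mean percentile was below the WT mean, which had ranked them, at each of the 10, as at 76.8% of the 971 small pre-B-only regions and 68.9% of the 40708 regions open in all 8 libraries. Among the 17 small pre-B-only regions at WT percentile 75 or above, a range cut on the WT values themselves, it was below at 94.1%. At 6 of the 10 the lowest value came from Mki67-/- replicate 1, which had the lowest coverage and shortest list of the 4. An earlier Mki67-/- peak appeared at Iqgap3 (1 Pre-pro-B library) and Ttc38 (1 Pro-B library).

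**Figure D4:**
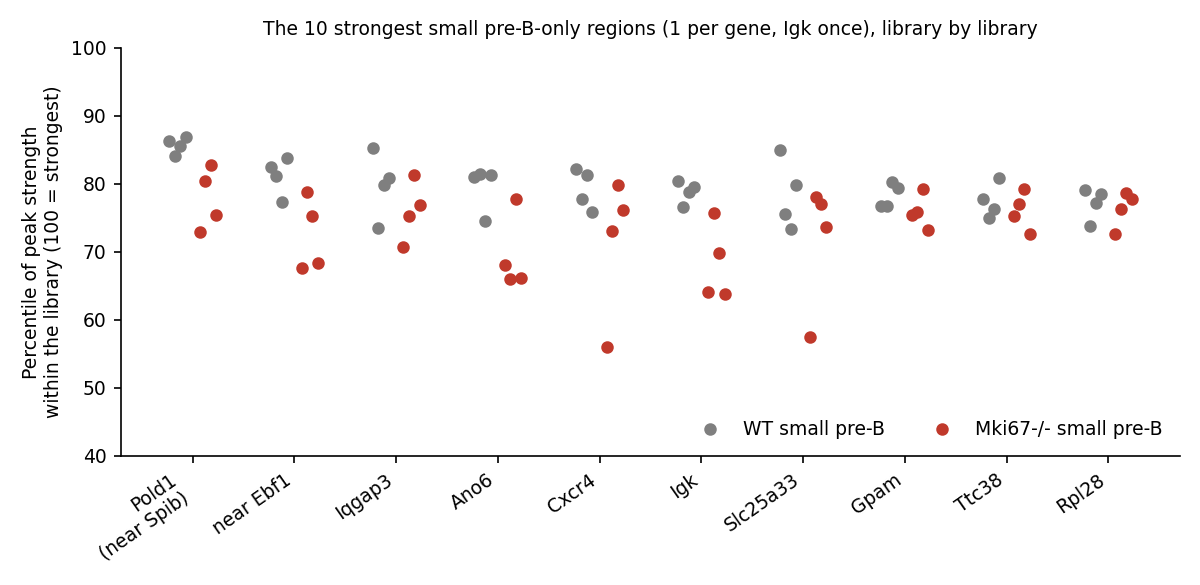
Percentile of peak strength within each library at the 10 strongest small pre-B-only regions when 1 is taken per gene and Igk counts once; each dot is 1 library, grey for WT Small pre-B and red for Mki67-/- Small pre-B, and the y axis starts at 40. WT values span 73.4 to 86.9 and Mki67-/- values 56.0 to 82.8, and the groups overlap at 8 of the 10. WT values chose and ranked the regions.

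Transcription regulators of the pre-B stage, the longest list, held the most regions in number, though not as a share. Of 40 listed, 15 had at least 1 small pre-B-only region in the gene or within 10 kb, with 24 regions out of 396 found in all 4 WT Small pre-B libraries (6.06%, against 4.08% of all such regions and 2.96% of region and gene pairs). Foxp1, a forkhead factor of early B cells, had 4 of its 60. The strongest of these (chr6:99358006-99358435) stood at 72.8, 64.0, 61.6 and 65.5 in WT and at 44.4, 54.4, 56.7 and 55.2 in Mki67-/- Small pre-B, one of the 115 regions without overlap. Pou2af1 encodes the octamer coactivator OBF-1. Its intragenic region (chr9:51225336-51226100) stood at 68.1, 55.5, 57.7 and 65.2 in WT and at 57.0, 53.9, 54.3 and 58.3 in Mki67-/- Small pre-B, and here the groups overlapped. Ikzf1 and Ikzf3, the Ikaros and Aiolos genes that oppose pre-B division, each had 2, with the stronger Ikzf1 region at a mean percentile of 51.0 and that of Ikzf3 at 33.2. Tcf3, the gene of E2A, had 2 at 31.8 or below, the weaker of them inside Uqcr11. Another 2 lay within Ebf1 itself at 24.4 or below. Tcf12, a relative of Tcf3, had 1 at 56.5. Of the 24 regions, 10 had a peak in 4 of 4 Mki67-/- Small pre-B libraries and in no earlier one. Another 2, both weak, had a peak in none of the 4: 1 in Foxo1, which drives Rag and light chain recombination (percentile 13.8), and 1 in Foxp1 (16.8).

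Receptor signalling genes were touched at about the rate of region and gene pairs, 5 of 30 genes with 7 of 241 regions (2.90%). Fyn, a Src-family kinase, had an intragenic region (chr10:39490823-39491384) at 72.3, 70.3, 67.7 and 72.3 in WT and at 57.0, 70.8, 72.4 and 70.2 in Mki67-/- Small pre-B. Rasgrp3, which links the receptor to Ras, had 1 at a mean percentile of 61.2 and a second, 437 bp from its start site, at 13.9. Fcgr2b, the inhibitory Fc receptor, had a pair at 48.2 and 42.5, both in 4 of 4 Mki67-/- Small pre-B libraries. The region in Bank1, an adaptor of B-cell receptor signalling, had a peak in 0 of the 4.

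Among 13 V(D)J recombination genes, Prkdc, Xrcc6 and Xrcc4, all of DNA end joining, had 1 each of 43 regions in total (6.98%), and Rag1 and Rag2, the recombinase genes, had none. Mature B-cell surface and antigen presentation genes had 8 of 155 (5.16%), at Cxcr4, S1pr1, Cd55, Gpr183, Ms4a1 and Cd83. The region counted at Cd55 lay inside Cd55b. S1pr1, the receptor that guides cells out of the marrow, had a pair at 29.4 and 16.4, and Ms4a1, which encodes CD20, had 1 at 29.5. Cell-cycle exit genes had 3 of 94 (3.19%). The Ccnd3 region, in the D-type cyclin gene needed for pre-B expansion (chr17:47529680-47530041), stood at 57.9, 59.2, 66.0 and 62.1 in WT and at 58.4, 60.4, 65.2 and 57.5 in Mki67-/- Small pre-B, so the genotypes overlapped fully. The 15 survival and apoptosis genes had 0 of 71. Pro-B and IL-7 receptor genes, active at the earlier stage, had 7 of 107 (6.54%), 3 of them in Erg and 1 each at Stat5a, Stat5b, Socs2 and Bst1. The region counted at Stat5b lay nearer to Ghdc.

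Markers of other cells were touched at similar rates. Myeloid genes had 3 of 46 (6.52%; Csf1r, Csf2ra, Itgam), T, NK and innate lymphoid genes 2 of 49 (4.08%; Klrb1c, Cd5), erythroid and megakaryocyte genes 1 of 35 (2.86%; Tfrc), plasmacytoid dendritic genes 2 of 61 (3.28%, both at Spib, which the pre-B list holds too) and plasma cell genes 2 of 35 (5.71%; Creb3l2, Mzb1). All 3 myeloid regions had a peak in 4 of 4 Mki67-/- Small pre-B libraries and in no earlier one. The region counted at Mzb1 lay nearer to Spata24. Against the small pre-B markers chosen as a check of the label (Igk, Cd22, Ms4a1, Cr2, Il2ra, Irf4, Spib and Cd40), small pre-B-only regions lay in or within 10 kb of Igk, Ms4a1 and Spib and not of the other 5. Beyond that 10 kb limit, 1 lay 18816 bp from Irf4 (chr13:30730131-30730417), at a mean percentile of 48.4. It had a peak in 3 of 4 Mki67-/- Small pre-B libraries and in 1 Mki67-/- Pro-B library. Distances beyond 10 kb are not given for Cd22, Cr2, Il2ra and Cd40. Over all lists 60 regions at 45 genes were small pre-B-only, of which 33 were present in all 4 Mki67-/- Small pre-B libraries and 4 in none.

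**Figure D5:**
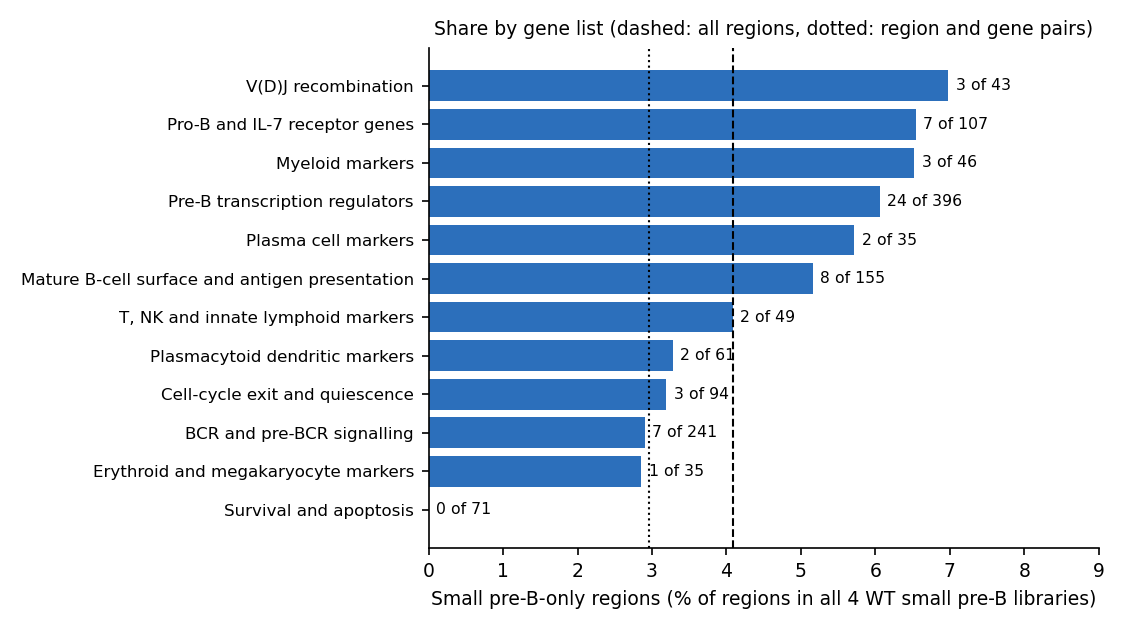
Small pre-B-only regions as a share (%) of the regions found in all 4 WT Small pre-B libraries, for the genes of each list and 10 kb around them; labels give the counts. The dashed line is the share over all regions (4.08%) and the dotted line that over region and gene pairs (2.96%), and lists with few regions vary most.

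Small pre-B-only regions lay away from start sites. Of the 1910 on chromosomes with start sites in the promoter table, 56 (2.93%) were within 1 kb of one, against 23.6% of the other regions in all 4 WT Small pre-B libraries. Median distance was 23226 bp against 11794 bp. Regions of the other stage-specific sets were also rarely near a start site, 5.12% for Pro-B-only and 3.25% for Pre-pro-B-only. A protein-coding gene body held 1034 of the 1980 (52.2%, against 64.9%), and 39.1% lay in neither a protein-coding nor a long noncoding gene (against 27.6%). In all, 1271 protein-coding genes had a small pre-B-only region inside or within 10 kb, 8.06% of the 15772 genes with any region of all 4 WT Small pre-B libraries. Most had a single one (1079), 147 had 2 and 45 had 3 or more. Outside Igk, 7.79% of the regions had another of the set within 5 kb, and inside Igk 37.4%.

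A few regions did not follow the stage in the Mki67-/- libraries. The region in Dmbt1, a scavenger receptor gene (chr7:131067926-131068511), had a peak in all 4 Small pre-B, all 4 Pro-B and 3 of 4 Pre-pro-B Mki67-/- libraries. Percentiles were 59.3, 60.7, 59.0 and 61.9 in Mki67-/- Small pre-B, 35.7, 27.7, 46.0 and 21.5 in Pro-B and 13.3, 11.4 and 26.4 in Pre-pro-B, against 44.7, 44.9, 50.5 and 62.8 in WT Small pre-B and no peak in any earlier WT library. Both earlier stages lay below Small pre-B, with overlapping values between them, and the region lies 4.62 Mb from Mki67 on the same chromosome. Kcnc1, a potassium channel gene, had a region (chr7:46401764-46402111) with a peak in 4 of 4 Mki67-/- Pro-B libraries at percentiles of 8.52 to 12.4, and in 0 of 4 Pre-pro-B libraries. The reverse was seen near Socs2, an inhibitor of cytokine signalling (chr10:95417961-95418173), with a peak in 4 of 4 Mki67-/- Pre-pro-B and 0 of 4 Pro-B libraries.

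Among the 104 regions absent from every Mki67-/- Small pre-B library, the strongest lay near Gm2a, a lysosomal lipid-binding protein gene (chr11:55116440-55116798), and stood at 48.6, 28.7, 51.2 and 55.4 in WT Small pre-B. Next were Coq8a, an enzyme gene of coenzyme Q synthesis (chr1:180191930-180192129; 46.1, 39.3, 38.8 and 50.2), Capsl, Slit1 and St3gal1, at mean percentiles of 41.0, 40.7 and 38.8. None of these 5 had a peak in any Mki67-/- library. Cdkal1, a tRNA-modifying enzyme gene, had 5 small pre-B-only regions, of which 3 were absent from all 4 Mki67-/- Small pre-B libraries. Within 10 Mb of Mki67 lay 2 of the 104 (1.92%), against 1.06% of the 1980 and 1.31% of all regions in 4 of 4 WT Small pre-B libraries. Of the other regions in all 4 WT Small pre-B libraries, 0.492% were absent from every Mki67-/- Small pre-B library, against 5.25% of the 1980. The other regions were stronger in WT, and were also present more often within each strength range below percentile 75. The part of strength in this difference was not tested.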

How the data were processed

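The submitters' processing notes name mm10, Trimmomatic (a read trimmer), MACS2 (a peak caller), deepTools, DiffBind and DESeq2, all without versions. The aligner and filters are not given in the sources used here. The authors deposited 1 narrowPeak list per library. Its columns, as deposited, are a whole-number score, the fold enrichment of the summit over local background (a ratio), -log10 of the p-value, -log10 of the q-value and the summit's offset. Lists start at a q-value of 0.01.

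Overlapping entries were merged within a library, and peaks of the 24 libraries were joined. A region counted as open in a library if any merged peak shared at least 1 bp with it. Background coverage was recovered from 3000 summits per library with -log10 q under 30, as the value whose Poisson p matched the deposited p to 0.01. Fold enrichments were used only to describe peaks. Regions and gene lists were chosen with earlier results of these data known. Foxo1, Irf4 and Gm46961 were named outside the rules given next. Named were the 10 strongest regions by WT percentile (1 per gene, Igk as 1 gene), the 10 genes with most regions, up to 8 genes per list, 5 absent from Mki67-/- Small pre-B, 5 kept there and in no earlier library, 5 with early Mki67-/- peaks, the antigen receptor loci and 4 promoters; results at 2 of the genes so chosen are not reported here. Genes came from RefSeq GRCm38.p6 (21631 protein-coding; 254 of 255 list entries matched), with 10 kb flanks. Start sites came from its promoter table of 32619 entries, in which chromosome 18 was not used here. Libraries were compared by exact permutation with Benjamini-Hochberg adjustment (Python 3.11.15, NumPy 2.4.6, SciPy 1.17.1), tested on simulated data. Alternatives were stricter q, equal list lengths, more overlap, regions of WT lists only, other filters, a replicate block, another gene assignment and left-out libraries.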

Additional observations from a re-analysis of the deposited data

Results flagged for a closer look

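Groups of 4 libraries were tested for a highest or lowest value whose gap to its neighbour exceeds Dixon's 95% critical value. They covered library totals, the shares of regions with a peak and the percentiles at the regions chosen by the naming rule. Chance gives about 1 in 20, and 20 of the 217 groups tested passed.

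The Mki67-/- Small pre-B count of regions with a peak was 1127 in replicate 1, against 1576, 1648 and 1655, with the lowest coverage (1.86) and the shortest list of its group; without that library the mean presence was 82.1%. The same replicate was lowest outside Igk, at 56.0% against 79.3 to 82.9%, and for the regions with 1 earlier WT peak, at 57.5% against 82.7 to 86.2%. Within strength ranges, 1 Mki67-/- Small pre-B library stood at 58.2% against 84.8 to 88.4% for small pre-B-only regions at percentiles 25 to 50. For the other regions at percentiles 50 to 75, 1 stood at 97.5% against 99.8 to 99.9%. Among WT Pre-pro-B-only regions, 1 Mki67-/- Pre-pro-B library had a peak in 74.8% against 92.5 to 96.0%.

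Mki67-/- Small pre-B replicate 1 was also the low value at Fyn (percentile 57.0 against 70.2 to 72.4), Vav2, a guanine exchange factor gene (19.4 against 51.8 to 54.2), the stronger Rasgrp3 region (47.9 against 60.5 to 62.1) and Csf1r (41.0 against 50.5 to 51.3). At Tcf12, replicate 3 of that group stood high, at 57.1 against 45.9 to 47.2.

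In WT Small pre-B, replicate 1 was low at Bank1 (0.372 against 27.6 to 31.4). It was high at Socs2 (67.9 against 29.5 to 34.1), Erg (36.2 against 16.3 to 19.5) and Med12l (40.2 against 31.1 to 31.8). Replicate 2 was low at Fcgr2b (29.6 against 53.8 to 55.4) and Cd5 (8.27 against 27.7 to 29.0). Replicate 3 was low at Ano6, a lipid scramblase gene (74.5 against 81.0 to 81.5), and high at Mical3 (43.6 against 29.1 to 30.7). Replicate 4 was high at the weaker Pou2af1 region (35.3 against 12.8 to 15.5).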

How the results depend on the processing

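Over 24 runs that each left out 1 library, the rule gave up to 2370 regions, 107 to 118 of them in Igk, and 69.2 to 82.1% were present per Mki67-/- Small pre-B library. The Mki67-/- Small pre-B excess over Pro-B was 66.3 to 79.4 percentage points of the regions and that over Pre-pro-B 67.9 to 80.8, past the threshold in every run. The Pro-B excess over Pre-pro-B was 0.535 to 2.98 points and lost its call in 11. The mirrored Mki67-/- set held 1467 to 2231 regions, 36.9 to 59.9% of the WT-chosen ones and shared 53.2 to 63.7% of its own. Without the 3 doubted libraries the excesses were 75.9 (adjusted p = 0.0857), 77.0 (adjusted p = 0.100, the smallest exact permutation p of 3 against 3) and 1.12 points (adjusted p = 0.0857), with a mirrored set of 2237 regions, 55.6% of the WT-chosen and 55.4% of its own shared. The Pro-B excess also missed the threshold (exact permutation, adjusted p = 0.0571) with the 40000 strongest peaks (1.17 points), with peaks that cover 0.5 of a region (1.12) and with regions joined over WT libraries only (1.30). Shared shares were 57.7% and 62.8% with the 40000 strongest peaks, 54.9% and 70.8% with the 20000 strongest, and 40.2% of the WT-chosen regions at a -log10 q of at least 10. The test of single regions called 1862 regions with the 40000 strongest peaks, 1183 with the 20000 strongest and 1467 among regions in 4 to 8 of the 12 libraries, where fewer regions were tested, and 0 without a filter. Genes with a small pre-B-only region numbered 1435 instead of 1271 by nearest gene end. The labels do not say whether equal replicate numbers pair libraries. Deviations of same-numbered libraries of different stages correlated at -0.0213 to 0.00880, and in 2 of 12 such comparisons the own number was closest. A shared animal or day need not show in peak presence, so these values do not settle it. With the replicate block the excesses were 73.1, 74.5 and 1.35 points at an exact permutation p = 0.125, the smallest it allows, and 0 regions were called. Read counts were not used here, so a missing peak is not shown to be closed chromatin.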

Other observations

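Genes with most small pre-B-only regions were mostly long. Sorcs2, Spata13, Med12l and Cdkal1 each had 5, out of 30, 21, 28 and 20 regions of all 4 WT Small pre-B libraries. Aff1, which encodes a transcription elongation factor, had 4, as did Foxp1, Mical3, Celf4 and Reln. The strongest Aff1 region (chr5:103708871-103709418) stood at a mean percentile of 68.7 in the WT and 71.5 in the Mki67-/- Small pre-B libraries. Sorcs2, a sorting receptor gene better known in neurons, had its strongest region (chr5:36343048-36343361) at 63.2 and 57.4, in 4 of 4 Mki67-/- Small pre-B libraries. Reln is also known for neuronal roles, and its strongest region stood at a mean percentile of 46.4 in WT.

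Outside Igk, the windows of 1 Mb with most small pre-B-only regions were chromosome 11 from 45 to 46 Mb, with 9 at and beyond Ebf1 and Clint1, and 3 windows with 8 each: chromosome 16 from 95 to 96 Mb at Erg, Ets2 and Psmg1, chromosome 17 from 29 to 30 Mb and chromosome 7 from 110 to 111 Mb. These had 46, 54, 108 and 53 regions of all 4 WT Small pre-B libraries. A microRNA hairpin lay within 1 kb of 2 small pre-B-only regions, Mir339 at 668 bp (percentile 59.5) and Mir6940 at 794 bp (percentile 16.5), each present in 4 of 4 Mki67-/- Small pre-B libraries. Chromosome 6 without Igk had 95 of 2404 such regions (3.95%).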
